A study of Mus musculus with 12 samples.

Results

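Genes of arginine use were followed in RAW264.7 cells, a murine macrophage line, with and without compressive solid stress: Nos2, Ass1 and Asl (nitric oxide synthesis and the return of citrulline to arginine), Arg1 and Arg2 (arginases), Slc7a1 and Slc7a2 (arginine transporters), and Odc1, Srm and Sms (polyamine synthesis). They were picked by name for their place in the pathway, with earlier results of these data known. Matched by Ensembl ID, they are 10 of the 56941 gene IDs in the count table. Bulk RNA was sequenced from 6 control and 6 compressed samples. In both groups the cells adhered overnight to a porous culture insert and were then covered for 24 h by a cushion of agarose in complete medium, and in the compressed group a printed weight on the cushion added 0.14 kPa. The model is 1 cell line in monoculture, with no other cell type added and no cytokine or lipopolysaccharide added. The study used Nos2 and Arg1 as readouts of the pro- and anti-inflammatory macrophage states, and the comparison asks how the steps around them changed with compression.

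Arginine enters macrophages through cationic amino acid transporters and is then shared between 2 kinds of enzyme. Inducible nitric oxide synthase turns it into nitric oxide and citrulline, from which argininosuccinate synthase and lyase can rebuild arginine. Arginase turns it into urea and ornithine, which ornithine decarboxylase commits to the polyamines putrescine, spermidine and spermine. Nos2 is a classical marker of inflammatory macrophages and Arg1 of alternatively activated ones in the mouse.

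Compressed macrophages had more transcript of both competing enzymes, of the inducible transporter Slc7a2, of the arginine-rebuilding enzyme Ass1 and of Odc1, and less of Slc7a1 and of Srm, the step after Odc1. Of the 10 genes, 7 rose and 2 fell by edgeR's quasi-likelihood F test (Benjamini-Hochberg adjusted p of at most 0.05 over 15001 tested genes), and Sms did not pass. Compression moved much of the transcriptome: 46.4% of all tested genes were called in either direction, 24.5% higher and 21.9% lower, so passing the test is common here. The median log2 fold change was 1.23 over the 10 genes and 0.02 over all tested genes, a description only, since the 10 were chosen with earlier results known. Only 6.63% of tested genes changed by at least 1 on the log2 scale, and 47 genes (0.313%) lay above 3.5, Nos2, Arg1 and Slc7a2 among them. In 9 of the 10 genes the lowest library of the higher group lay above the highest of the other, 7 higher and 2 lower under compression. That held for 33.6% of all tested genes, 16.5% higher and 17% lower. In bulk RNA, more cells with a transcript and more transcript per cell cannot be told apart. Whether each sample was its own culture is left unsaid in the labels, and every p-value here refers to the variation among these samples, part or all of which may be technical.

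**Figure D1:**
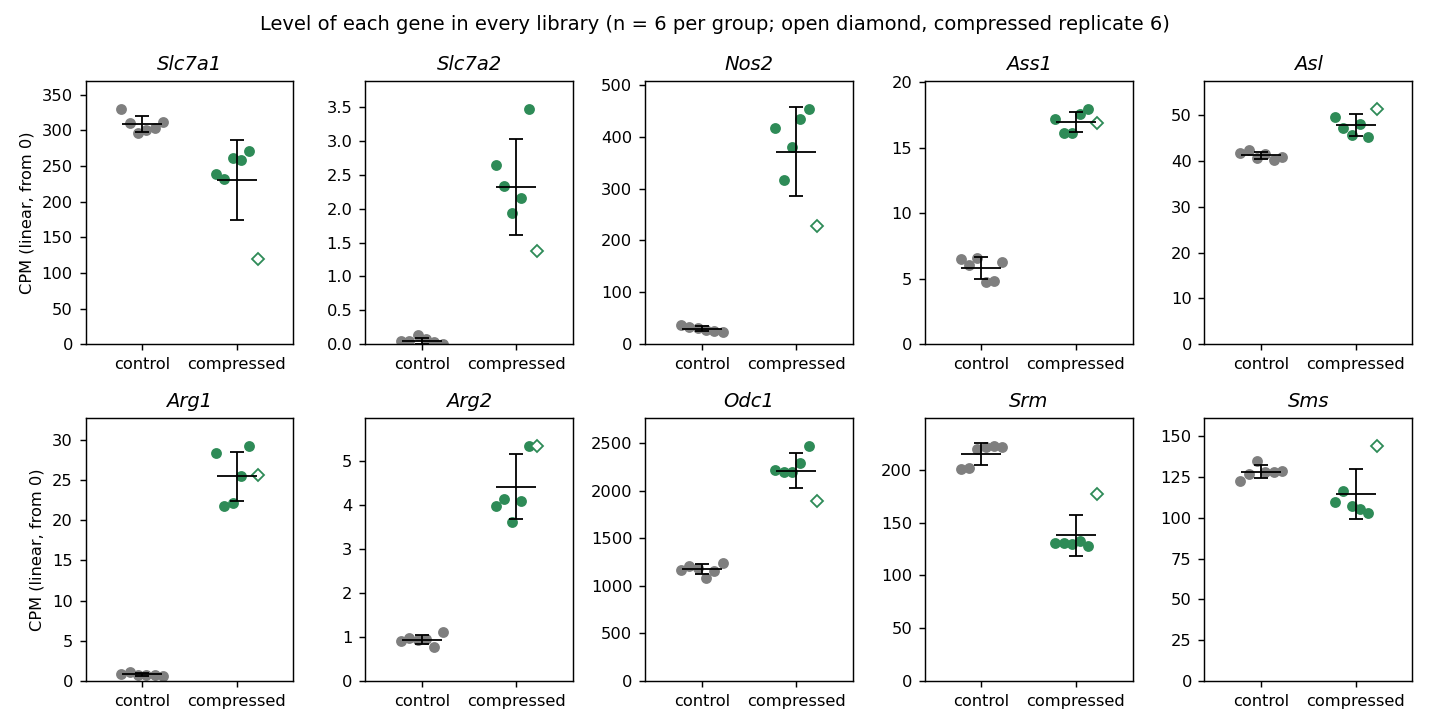
Level in CPM (counts scaled to library size by TMM; linear axes from 0) of the 10 genes in each library, with points for libraries, an open diamond for compressed replicate 6, and black bars for the mean and SD of 6 libraries. Control and compressed libraries are separate in every panel except Sms, and the diamond lies apart from the other compressed libraries for Slc7a1, Srm and Sms.

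The libraries held 37948795 to 40463545 counts in controls and 33460807 to 39103987 in compressed samples. Mitochondrial transcripts took 2.93 to 3.52% of counts in every library. All 9 macrophage markers (Adgre1, Csf1r, Cd68, Itgam, Lyz2, Spi1, Fcgr1, Ptprc and Cd14) were expressed, 4 higher and 3 lower under compression, with a summed level of 6423 to 6874 CPM in controls and 7917 to 9786 CPM in compressed libraries. None of the 15 fibroblast, lymphocyte and epithelial markers passed the count filter, and none exceeded 10 counts in any library. Of 5 osteoclast markers, 4 were tested and 3 rose (summed 311 to 352 CPM in controls, 384 to 455 CPM under compression), and their part in the results below was not tested. Compressed replicate 6 stood apart: its log2 CPM correlated with other compressed libraries at 0.968 to 0.975, against 0.994 to 0.996 among the other 5. In that library genes with under 1500 bp of exon lay a median of 0.67 above the other 5 on the log2 scale (1044 genes) and genes with over 5000 bp lay 0.45 below (4605 genes). Calls of the 10 genes and counts over lists that change without it are given both ways.

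Promoter sequence was at hand for 4 of the 10 genes, Slc7a1, Ass1, Odc1 and Sms, in RefSeq windows of the GRCm38.p6 assembly that run from 250 bases before to 50 bases after a start site. They are shown because the group includes genes that moved in opposite directions, and because Odc1 is a textbook target of MYC, which binds the E-box CACGTG. Searched on both strands were CACGTG, the GC box GGGCGG and the AP-1 motif TGANTCA, which do not overlap one another in these windows. CACGTG occurs in 7.15% of the 32817 windows of the table, GGGCGG in 35.6% and TGANTCA in 7.81%. Capitals mark the matches, sequences read 5′ to 3′ on the gene's strand, and all stretches end at or before the start site. A match is a description of letters, not of binding, and sequence outside the windows was not searched.
Odc1, chr12:17544623-17544793, plus strand: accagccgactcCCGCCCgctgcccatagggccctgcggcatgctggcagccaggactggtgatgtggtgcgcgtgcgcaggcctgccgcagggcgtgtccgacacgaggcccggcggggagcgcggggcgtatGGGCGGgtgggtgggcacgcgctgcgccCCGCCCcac
Ass1, chr2:31470222-31470251, plus strand: cgcgcccgtcccCACGTGtcccaggttcct
Sms, chrX:157492288-157492537, minus strand: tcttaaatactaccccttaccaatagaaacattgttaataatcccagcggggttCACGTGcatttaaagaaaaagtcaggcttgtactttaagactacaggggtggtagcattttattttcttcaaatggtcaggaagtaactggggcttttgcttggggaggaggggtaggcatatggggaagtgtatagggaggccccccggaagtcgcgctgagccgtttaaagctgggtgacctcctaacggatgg
Slc7a1, chr5:148399905-148400154, minus strand: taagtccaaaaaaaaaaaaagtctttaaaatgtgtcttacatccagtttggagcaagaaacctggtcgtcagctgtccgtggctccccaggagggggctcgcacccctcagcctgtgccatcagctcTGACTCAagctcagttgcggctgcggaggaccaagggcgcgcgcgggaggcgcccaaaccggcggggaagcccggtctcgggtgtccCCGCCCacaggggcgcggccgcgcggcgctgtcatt

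The E-box of Ass1 lies at position -36 from its start site, with a GC box at -63 outside the stretch shown, and the E-box of Sms lies at -196. The Odc1 window holds 4 GC boxes, at -238, -116, -88 and -15, the last of them outside the stretch shown, and no CACGTG. The Slc7a1 window holds an AP-1 match at -123 and a GC box at -36. Slc7a1 and Sms each have a further RefSeq window: that of Slc7a1 holds none of the 3 motifs, and that of Sms holds 4 GC boxes, at -176, -172, -168 and -128, and no CACGTG or AP-1 match.

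Nos2 encodes inducible nitric oxide synthase, the enzyme behind the nitric oxide burst of activated macrophages. Its level was 23.8 to 37.6 CPM in controls (median 29.6) and 227 to 453 CPM under compression (median 398), a gap of several fold between the highest control and the lowest compressed library. The lowest compressed value, 227 CPM, was that of replicate 6, and the other 5 lay at 317 CPM or above. The log2 fold change was 3.63 ± 0.18 (SE, n = 6 per group), a 12.4-fold rise (edgeR adjusted p = 2.98e-09), and was 3.74 without replicate 6. Among 14657 tested genes with a known exon length, the level of Nos2 per kb of exon lay above 56.3% of genes in controls and above 96.4% under compression.

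Arg1, the cytosolic arginase, was close to silent in controls, at 0.618 to 1.07 CPM (median 0.772). Under compression it reached 21.8 to 29.3 CPM (median 25.6), with all 6 libraries within a narrow range and replicate 6 among them, at 25.7 CPM. The log2 fold change of 4.98 ± 0.12 (SE, n = 6 per group; 31.6-fold; edgeR adjusted p = 4.52e-11) ranked the gene 10 from the top of 15001. Arg2, the mitochondrial arginase, rose less. Its level was 0.771 to 1.11 CPM in controls (median 0.941) and 3.60 to 5.33 CPM under compression (median 4.10), and its log2 fold change was 2.23 ± 0.13 (SE, n = 6 per group; 4.68-fold; edgeR adjusted p = 1.09e-08). The exons of Arg2 overlap those of Vti1b on the opposite strand, a much more abundant gene (44267 counts over all libraries, where Arg2 had 224 in controls and 929 under compression) with a log2 fold change of 0.20 that was not called. The strand setting of the counting is not given in the sources used here, so the level of Arg2 is uncertain to that extent.

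The transporters moved apart. Slc7a2, the cationic amino acid transporter that classical and alternative activation both induce, was almost undetected in controls, at 0 to 0.129 CPM (median 0.0486, 13 counts in 6 libraries and none in 1 of them). Under compression it lay at 1.38 to 3.47 CPM (median 2.25), 484 counts in all, with replicate 6 the lowest. The ratio of its summed counts, scaled for depth, was 42.2 (exact 95% interval for counting error alone, 24.4 to 79.7). The fitted log2 fold change was 5.33 ± 0.37 (SE, n = 6 per group; edgeR adjusted p = 6.03e-08), and the gene passed the low-count filter through its compressed libraries only. It also overlaps a lincRNA on the opposite strand, Gm26584, whose counts were not analysed here.

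Slc7a1, the constitutive transporter, stayed the major form by a wide margin. Its level was 297 to 329 CPM in controls (median 307) and 119 to 271 CPM under compression (median 249). The compressed libraries all lay below the controls, with replicate 6 at 119 CPM and the other 5 between 231 and 271 CPM. The log2 fold change was -0.42 ± 0.15 (SE, n = 6 per group), or 1.34-fold lower, with an edgeR adjusted p of 0.0353. Without replicate 6 the fall was smaller and its spread much smaller (log2 fold change -0.29, adjusted p = 1.55e-06). With replicate 6 kept, leaving out compressed replicate 1 or 2 or any 1 of the 6 controls put the adjusted p between 0.0513 and 0.0664.

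Ass1 and Asl, which rebuild arginine from citrulline, rose by different amounts. Ass1, the argininosuccinate synthase and the slower, regulated step, lay at 4.72 to 6.60 CPM in controls (median 6.17) and 16.1 to 17.9 CPM under compression (median 17.03). The compressed libraries were tightly grouped, with replicate 6 at 16.9 CPM, and the log2 fold change was 1.54 ± 0.087 (SE, n = 6 per group; 2.91-fold; edgeR adjusted p = 9.70e-09). Asl, the lyase, went from 40.2 to 42.4 CPM (median 41.3) to 45.3 to 51.4 CPM (median 47.7). Its groups did not overlap, but the step was small, at a log2 fold change of 0.21 ± 0.042 (SE, n = 6 per group; 1.16-fold; edgeR adjusted p = 7.89e-04). Ass1 shares 38.6% of its 50-base words with the processed pseudogene Gm5424, which held 44 counts in all 12 libraries.

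Odc1, ornithine decarboxylase and the committed step of polyamine synthesis, was the most abundant of the 10 genes in both groups. Its level was 1082 to 1237 CPM in controls (median 1178) and 1891 to 2469 CPM under compression (median 2208). The lowest compressed library, replicate 6 at 1891 CPM, was well above the highest control. The log2 fold change was 0.91 ± 0.061 (SE, n = 6 per group; 1.88-fold; edgeR adjusted p = 4.82e-08). The processed pseudogene Gm7993 shares 439 of the 50-base words of Odc1 (11.7%) and held 126450 counts against 744503 for Odc1. Gm7993 rose with it (log2 fold change 1.10), and the difference in mean log2 CPM was 0.94 for the sum of both and 0.91 for Odc1 alone, each at an exact permutation p of 0.00216. The sum was added after the data were seen.

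The enzymes after Odc1 went the other way or did not pass the test. Srm, spermidine synthase, lay at 201 to 223 CPM in controls (median 221) and 128 to 178 CPM under compression (median 131). Replicate 6 was the 178 CPM library, and the other 5 lay between 128 and 133 CPM, all below every control. The log2 fold change was -0.64 ± 0.079 (SE, n = 6 per group), or 1.55-fold lower (edgeR adjusted p = 1.72e-05), and -0.72 without replicate 6. Sms, spermine synthase, lay at 122 to 135 CPM in controls (median 128) and 103 to 144 CPM under compression (median 109). Its groups overlapped through replicate 6 alone, which at 144 CPM was above every control, while the other 5 compressed libraries lay at 103 to 117 CPM. The log2 fold change was -0.17 ± 0.075 (SE, n = 6 per group; edgeR adjusted p = 0.0875). It was -0.24 with an adjusted p of 2.53e-06 without replicate 6, and -0.094 with an adjusted p of 0.498 once a trend with exon length was taken out of every library.

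Levels of different genes were compared as CPM per kb of merged exon. In controls the order was Odc1 (345), Srm (134), Slc7a1 (26.8), Sms (21.3), Asl (8.55), Nos2 (6.77), Ass1 (2.42), Arg2 (0.657), Arg1 (0.360) and Slc7a2 (0.00597). Of neighbours in that order, Asl and Nos2 overlapped in their libraries and the other pairs did not. Under compression the order was Odc1 (649), Srm (86.5), Nos2 (84.1), Slc7a1 (19.96), Sms (19.03), Arg1 (11.4), Asl (9.92), Ass1 (7.03), Arg2 (3.09) and Slc7a2 (0.254). Nos2 moved up from place 6 to place 3, where its libraries overlapped those of Srm, and Arg1 from place 9 to place 6, where its libraries overlapped those of Asl. Slc7a1 and Sms overlapped too, and the other neighbours did not.

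Whether 2 genes of a step changed by different amounts was tested on the log2 ratio of their counts within each library, which needs no library size. All 6 ratios that were computed differed between the groups with no overlap, and each had an exact two-sided permutation p of 0.00216, the smallest that 6 against 6 libraries can give, which is 0.00216 after adjustment over the 6. Arg1 gained on Nos2: the ratio of Nos2 over Arg1 fell by 1.36 on the log2 scale, from 18.6 to 7.21 per kb of exon, so that Nos2 remained the more abundant of the pair in both groups. Per kb of exon the arginases changed places. Arg2 was 1.84 times the level of Arg1 per kb in controls, and Arg1 was 3.71 times that of Arg2 under compression (log2 change 2.77). In counts they were close in controls, at 192 for Arg1 and 224 for Arg2 over the 6 libraries. The control order thus rests largely on the exon lengths used, 2228 bp for Arg1 and 1428 bp for Arg2. The strand uncertainty of Arg2 given above applies here too.

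The ratio of Ass1 over Asl rose by 1.34 on the log2 scale, from 0.281 to 0.710 per kb. Odc1 over Srm rose by 1.56, from 2.56 to 7.53 per kb, and Srm over Sms fell by 0.47, from 6.30 to 4.54 per kb. So of the 3 polyamine steps, Srm lost against both its neighbours. Slc7a2 over Slc7a1 rose by 5.87 with 0.5 added to each count, and by 5.03 with 2 added, since the control side rests on 13 counts of Slc7a2.

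**Figure D2:**
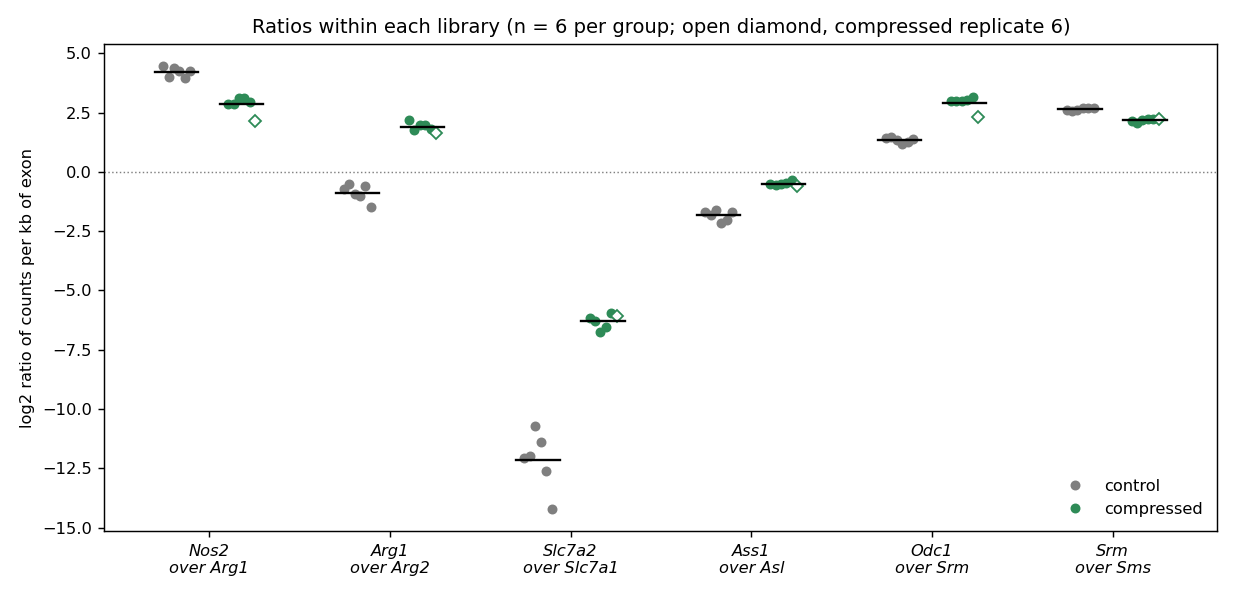
Log2 ratio of counts per kb of exon for 6 gene pairs, each point a library, bars the mean of 6 libraries and the open diamond compressed replicate 6. In every pair the control and compressed libraries are apart, and only Arg1 over Arg2 crosses 0, the line of equal level.

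Around these genes, 81 others of the pathway were listed in 9 groups, of which 65 passed the low-count filter, 19 rose and 23 fell (29.2% and 35.4%, against 24.5% and 21.9% of all tested genes). Their median log2 fold change was -0.06. Without replicate 6 the counts were 24 and 33 of 65 (36.9% and 50.8%), where 33.8% of all tested genes were called higher and 32.2% lower. The lists thus moved in both directions, and none of the 65 had a log2 fold change above 1.75, the value of Azin2. Counts given for single lists below are to be read against these shares of all tested genes.

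Of the other nitric oxide synthases and the genes for their cofactor tetrahydrobiopterin, 10 of 11 were tested, 4 rose (6 without replicate 6) and 3 fell. Nos3, the endothelial synthase (log2 fold change 1.15, 0.656 CPM in controls), and Nos1, the neuronal synthase (1.05, 1.18 CPM in controls), rose at levels far below Nos2. In Nos1 the groups overlapped through replicate 6. Gch1, the first enzyme of tetrahydrobiopterin synthesis, named after its values were seen, rose by 0.48 on the log2 scale. Pcbd1 was below the filter. Of the genes for sensing and removing nitric oxide only Adh5, which breaks down S-nitrosoglutathione, was tested, and it was not called (0.15), while Gucy1a1, Gucy1a2, Gucy1b1, Prkg1 and Cygb were below the filter.

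Of 8 other arginine and ornithine transporters, 6 were tested, 2 rose and 3 fell. Slc7a7, a light chain of the exporter of cationic amino acids, rose by 0.54 on the log2 scale, Slc7a3, a further cationic transporter at 0.583 CPM in controls, had a log2 fold change of -0.63, and Slc25a15, the mitochondrial ornithine carrier, of -0.41. Slc25a2 and Slc25a29 were below the filter. Some methylarginines inhibit nitric oxide synthases. Of the genes that form or remove methylarginines, 7 of 8 were tested, and 4 fell and none rose by edgeR. That is 57.1% lower, against 21.9% of all tested genes. Without replicate 6 all 7 fell, where 32.2% of all tested genes did. The list joins genes that form and genes that remove methylarginines, so these counts give no direction for methylarginine level. The arginine methyltransferases Prmt5, Prmt7 and Prmt1 had log2 fold changes of -0.57, -0.56 and -0.39, and Ddah1 was below the filter.

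Ornithine can also leave toward proline, and arginine toward creatine. Of 13 genes of these routes and of the urea cycle, 9 were tested, 2 rose and 6 fell. The pyrroline-5-carboxylate reductases split, with Pycr1 at a log2 fold change of 0.68 and Pycr3 at -0.61, and Gamt, the last enzyme of creatine synthesis, was at 0.62. Otc, Cps1 and Nags, the liver enzymes of the urea cycle, and Agmat were below the filter.

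On the polyamine side, 9 of 10 genes for antizymes and for the aminopropyl donor were tested, 2 rose and 4 fell (5 without replicate 6). Azin2, an antizyme inhibitor that protects ornithine decarboxylase from degradation, rose from 1.13 to 1.75 CPM to 4.03 to 5.43 CPM (log2 fold change 1.75). Azin1, the far more abundant antizyme inhibitor, was not called (-0.04, a mean of 155 CPM in controls and 151 CPM under compression). The antizyme Oaz1 was not called either (-0.06), but fell without replicate 6 (-0.25). Azin1 and Oaz1 were named after their values were seen. Mat2a, which makes S-adenosylmethionine, had a log2 fold change of -0.88, and Amd2, a copy of S-adenosylmethionine decarboxylase, of -0.76. Amd2 shares 85.7% of its 50-base words with Amd1, so its counts are uncertain, and Amd1, named after its values were seen, was at -0.44. Oaz3 was below the filter. Decarboxylated S-adenosylmethionine is the second substrate of both Srm and Sms.

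Of 7 genes for breakdown and transport of polyamines, 6 were tested, 2 rose and 1 fell (3 without replicate 6, and 2 with the exon-length trend removed). Smox, spermine oxidase, rose from 47.0 to 52.2 CPM to 115 to 135 CPM (log2 fold change 1.31), with replicate 6 inside the range of the others. Sat1, the acetyltransferase that starts polyamine catabolism and export, rose by 0.88 on the log2 scale, and its replicate 6, at 266 CPM, lay above the other compressed libraries (158 to 180 CPM). Atp13a3, a polyamine transporter, had a log2 fold change of -0.44. Slc18b1 was below the filter. Of the genes for eIF5A and for its modification from spermidine, 3 of 4 were tested and Dohh fell (-0.30, with overlapping groups). Without replicate 6 all 3 fell, with log2 fold changes of -0.43 for Dohh, -0.19 for Eif5a and -0.13 for Dhps, the last 2 named after their values were seen. Eif5a2 was below the filter.

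All 14 transcription factors known at Nos2, Arg1 or Odc1 were tested. Of these, 7 rose and 1 fell (50% and 7.14%, against 24.5% and 21.9% of all tested genes). Without replicate 6, 10 rose and 3 fell, where 33.8% and 32.2% of all tested genes were called. The list was chosen with earlier results of these data known. Myc, an activator of Odc1, rose from 23.2 to 26.3 CPM to 50.5 to 66.6 CPM (log2 fold change 1.21). Of the related factors in that list, Mxd1 rose too (0.90), and Max (-0.06) and Mnt (0.03) were not called. Without replicate 6 Max fell (-0.13) and Mnt rose (0.10). Mxd1, Max and Mnt were named after their values were seen, and the part of any of these factors in the level of Odc1 was not tested. Cebpb, a factor at the Arg1 enhancer, rose by 1.00 on the log2 scale, and by 0.73 without replicate 6, where it stood at 138 CPM against 54.1 to 73.3 CPM in the other compressed libraries. Irf1, an interferon-response factor at Nos2, was the gene that fell (-0.20), and its groups overlapped.

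**Figure D3:**
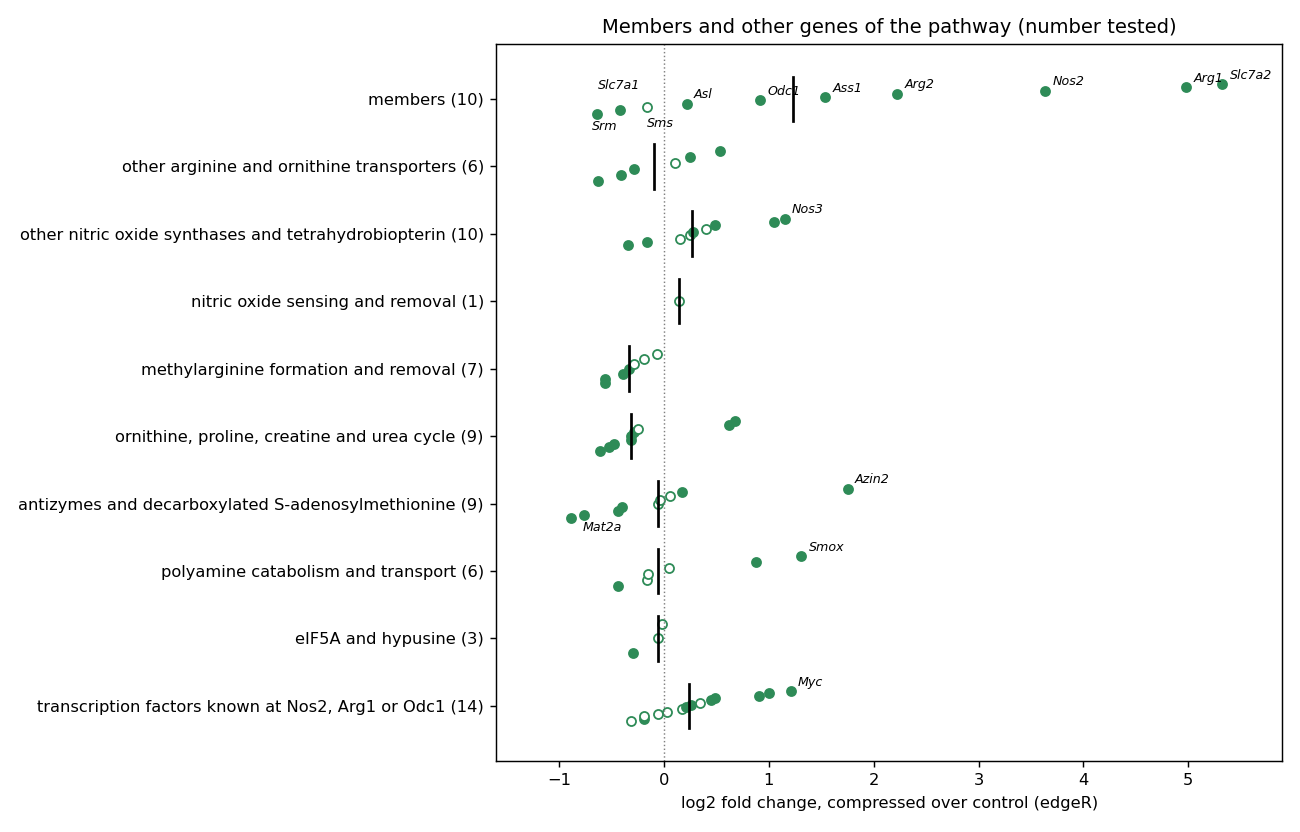
Log2 fold change (compressed over control, edgeR) of the 10 genes, in the top line, and of 65 tested genes in 9 lists, with filled points for called genes and black bars for each median; 1 tested gene is counted but not drawn. The 10 genes reach from -0.64 to 5.33, and the points drawn for the other lists from -0.88 (Mat2a) to 1.75 (Azin2).

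Genes with a profile like that of Nos2 or Arg1 were ranked by the root mean square difference in log2 CPM, relative to the control mean, over the 12 libraries and 10562 named genes. Nearest to Nos2 were Lif (0.19), Ptgs2 (0.20), Mmp9 (0.23), Aebp1 (0.27) and Ntng2 (0.33), where the median gene was at 2.59. Lif encodes a cytokine of the interleukin-6 family, Ptgs2 the inducible cyclooxygenase and Mmp9 a matrix gelatinase. Ptgs2 was the most abundant, at 179 ± 13.2 CPM in controls and 2037 ± 379 CPM under compression (SD, n = 6). Nearest to Arg1 were Upp1 (0.25), Cited1 (0.33), Gipr (0.33), Mmp14 (0.37) and Atp9a (0.41), where the median gene was at 3.499. Upp1, uridine phosphorylase, went from 1.61 ± 0.311 to 53.9 ± 10.7 CPM (SD, n = 6), and Mmp14 encodes a membrane-bound metalloproteinase. No gene was in both lists. The measure mostly follows the size of the change, in which Nos2 and Arg1 differ (log2 fold changes 3.63 and 4.98). With distances as short as those listed, the lists could not share a gene, so its absence carries no further information.

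For several of the 10 genes replicate 6 was the extreme compressed library. Relative to the mean of the other 5 compressed libraries its log2 CPM was lower by 0.80 for Nos2, lower by 0.81 for Slc7a2 and lower by 1.08 for Slc7a1, and higher by 0.45 for Srm, 0.41 for Sms and 0.35 for Arg2. Arg1, Ass1 and Asl lay within 0.12 of the others, and Odc1 was lower by 0.26. Over 11006 genes this deviation went with exon length (Spearman rho = -0.65, across genes of 1 library). With each other library set against the rest of its group, rho was -0.30 to 0.405 in controls and 0.31 to 0.58 in compressed replicates 1 to 5. The reference of those 5 includes replicate 6, so their rho is not independent of it. Genes under 1500 bp deviated by a median of -0.19 to 0.04 in the other libraries, against 0.67 in replicate 6. In replicate 6 Slc7a1, the longest of the 10 at 11530 bp of exon, was the lowest, and Srm, at 1599 bp, was the highest. Set against the middle 50% of genes in the same of 10 length bins, Sms lay above, Nos2, Odc1, Arg1, Arg2 and Ass1 lay below, and Slc7a1, Asl and Srm lay inside, while Slc7a2 was too low for that set. The part of exon length in the values of that library was not tested for single genes.

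**Figure D4:**
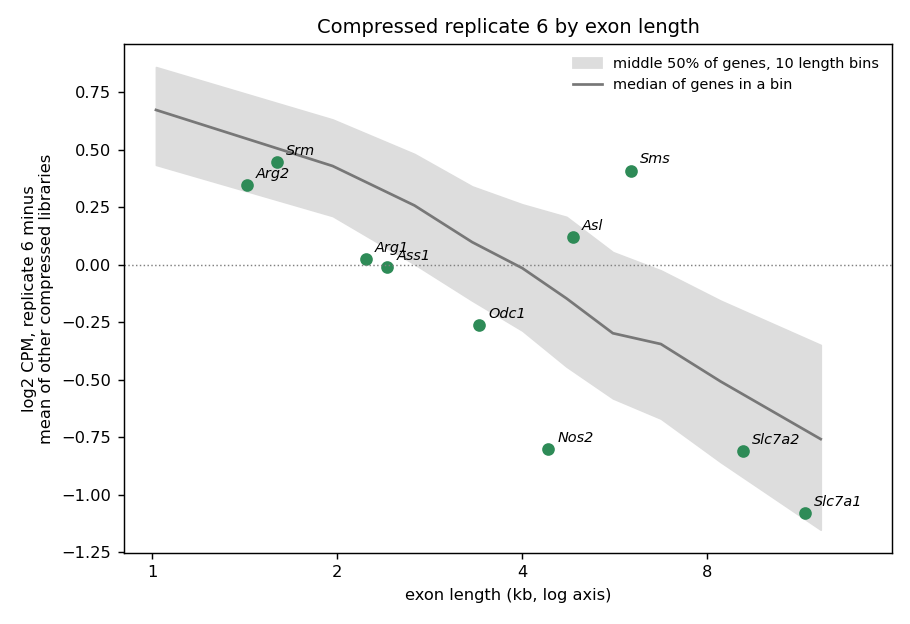
Log2 CPM of compressed replicate 6 minus the mean of the other 5 compressed libraries against exon length in kb (log axis), with the 10 genes as points and, for 11006 genes in 10 length bins, the median as a line and the middle 50% as a band. The line falls from 0.67 in the shortest bin to -0.76 in the longest, and Sms (0.41) lies above the band and Nos2 (-0.80) below it.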

How the data were processed

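Counts were deposited by the authors as whole numbers per Ensembl gene, 1 column per library, from directional libraries enriched for mRNA; reads were aligned with STAR 2.7.2, and the submitters' processing notes name GRCm39. Which program counted the reads, and with what strand setting, is not given in the sources used here. Gene names and exon lengths came from GENCODE M21 (GRCm38) by ID, for 51948 of 56941 IDs with 99.5% of counts, so no coordinates of counted features are given.

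Genes were kept by edgeR's filterByExpr (minimum count 10, groups of 6; 15001 genes), scaled by TMM and tested with edgeR 4.0.16 in R 4.3.3 by the quasi-likelihood F test on condition alone, with Benjamini-Hochberg adjustment over all tested genes. Standard errors were derived from the fit, as the size of the log2 fold change divided by the root of F, and restate the test. Log2 CPM used a prior count of 2. Ratios used counts plus 0.5 and the exact permutation test over 924 splits. Among the 10 genes, counting error is largest for Slc7a2, whose interval covers counting error only. It is not small for Arg1 and Arg2 in controls, at 24 to 44 and 30 to 43 counts per library. Some other pathway genes were as low, such as Nos3 at 20 to 36 counts in controls. The edgeR and DESeq2 fits were also run on simulated counts with the spread of the control libraries. No simulated library was made to deviate as compressed replicate 6 does, so that run cannot speak to calls that turn on it.

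The 10 genes, the 9 lists of pathway genes, the markers and the ratios were chosen with earlier results of these data known. Named with values were the 10 genes; in each list up to 3 called genes, with the largest increase and the largest decrease; the list members below the filter, by name; and the 5 named genes with at least 1 CPM in the higher group most like Nos2 and Arg1. A gene that this rule takes is not reported here. Alternatives were DESeq2 1.42.0, RLE factors, library size alone, no filter, replicate number as a block, a lowess trend with exon length removed from each library (span 0.3), an adjusted p of 0.01, 2 added to ratio counts, and leaving out each library in turn. Replicate numbers were not taken as pairs.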

Additional observations from a re-analysis of the deposited data

Results flagged for a closer look

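For each gene and ratio, the gap between the extreme library and its nearest neighbour was divided by the range of its group of 6 and compared with Dixon's critical value for 6 samples. Of 32 groups tested, 5 exceeded it, and in all 5 the library was compressed replicate 6. Chance gives about 1 in 20 for a single group. The 32 are not independent, since the ratios reuse the same genes and all compressed groups share that library, so 5 of 32 cannot be set against that rate. It was the lowest of its group for Slc7a1 (gap share 0.805; log2 CPM 6.90, others 7.85 to 8.08) and the highest for Srm (0.882; 7.47, others 7.00 to 7.06) and Sms (0.634; 7.17, others 6.69 to 6.87). It was the lowest for the log2 count ratio of Nos2 over Arg1 (0.747; 3.15, others 3.86 to 4.10) and of Odc1 over Srm (0.769; 3.41, others 4.07 to 4.27). Nos2 and Slc7a2, also lowest in that library, did not exceed the critical value.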

How the results depend on the processing

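Of 341 values recomputed under an alternative, 321 kept their direction and their side of the threshold (counts: within 1.5 times), and none reversed. The number of the 10 genes called higher was 7 under every alternative. The number called lower, 2, was 1 to 3 with a library left out and 1 at an adjusted p of 0.01, in each case through Slc7a1 or Sms. Slc7a1 lost its call in 8 of 12 such fits (log2 fold change -0.44 to -0.41). Sms was called with DESeq2 (-0.18, adjusted p = 0.0464), with library size alone (-0.23, 0.0181) and without compressed replicate 6 (-0.24, 2.53e-06). The other pathway genes gave 18 to 24 higher and 20 to 33 lower with a library left out. The 6 ratios kept their direction and call with 2 added to the counts, under the replicate block and with each library left out; they were not recomputed with the exon-length trend removed.

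Libraries with the same replicate number did not deviate together (correlation of their deviations -0.12 to 0.040), so the numbers were not treated as pairing. With the replicate block, 7 of the 10 genes were called higher and 2 lower, 18 and 22 of the other pathway genes, and the ratios had an exact permutation p of 0.03125, the smallest that 6 pairs allow. The low count of Slc7a2 in controls limits the size of its fold change. Its log2 fold change was 5.08 to 5.74 under the alternatives, and 5.32 without the low-count filter. The part of the overlapping lincRNA in its counts was not tested.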
